A study of Mus musculus with 4 samples.

Results

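The cells described here were a rare group of mature dendritic cells (DCs) found among myeloid-derived suppressor cells (MDSCs) that had been generated in vitro from mouse bone marrow and profiled by single-cell RNA sequencing (scRNA-seq). They were chosen by their own transcripts: a cell was a member when at least 3 of the 5 genes Ccr7, Ccl22, Fscn1, Il4i1 and Cacnb3 had at least 1 unique molecular identifier (UMI, a counted RNA molecule). In all, 82 of the 9303 kept cells met this rule, or 0.881% (95% exact Clopper-Pearson interval 0.702 to 1.09). Bone marrow of young adult C57BL/6 mice was cultured for 4 days with IL-6 and GM-CSF at 40 ng/mL each, and live CD11b+ cells were then sorted and captured on the 10X Genomics platform. In the wild-type (WT) groups, WT+ISO received isoproterenol (ISO), a synthetic catecholamine, at 10 µM, and WT+PBS received vehicle. GEO's treatment field names isoproterenol for every sample, whereas the sample titles and the study place it in the ISO groups alone, and the titles were followed. Each group was 1 library, so no value below has a replicate or a test. The other 2 libraries of the series, 1 with PBS and 1 with ISO, came from knockout mice and are given as 1 sum. They supplied 41 of the 82 members and enter every 4-library call and ratio below, so these mix both genotypes.

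Migratory DCs are the form that conventional DCs take once they have matured. They switch on the chemokine receptor CCR7, which guides them along CCL19 and CCL21 toward lymph nodes, and they raise MHC class II, costimulatory molecules and the NF-kB machinery while they lose the tissue-resident traits of immature cells. GM-CSF drives DC differentiation from bone marrow precursors, and cultures made with it hold granulocytes, macrophages and DCs side by side. Migration itself was not measured here.

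After the filter, the WT+PBS library held 2210 cells with 24393687 UMIs and the WT+ISO library 2264 cells with 29400468 UMIs, while the other 2 libraries together held 4829 cells with 47913635 UMIs. Members numbered 26 in WT+PBS, 15 in WT+ISO and 41 in the other 2 libraries. They were deeper than the rest, with a median of 11718 UMIs and 3204 genes per cell against 8364 UMIs and 2338 genes in the other 9221 cells. The same direction was seen in WT+PBS (median 12437 against 7974 UMIs) and in WT+ISO (14653 against 10202 UMIs). A rule that asks for 3 genes is met more easily by a deep cell, and depth was not particular to members. Cells with 1 and with 2 rule genes had medians of 16639 and 15257 UMIs. Mitochondrial genes gave a median of 3.60% of UMIs in members and 2.59% in the other cells. No barcode was shared between libraries.

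Cells with any rule gene fell into those with 1 and those with most of the 5. None of them was found in 8895 cells, 1 in 309 cells and 2 in 17 cells, whereas 3 were found in 10 cells, 4 in 18 cells and all 5 in 54 cells. In WT+PBS, 3, 7 and 16 members had 3, 4 and 5 of the genes, and in WT+ISO 3, 0 and 12 members did. In WT+PBS, in WT+ISO and in the other 2 libraries, the class with all 5 genes was larger than each of the classes with 2, 3 and 4 genes.

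**Figure D1:**
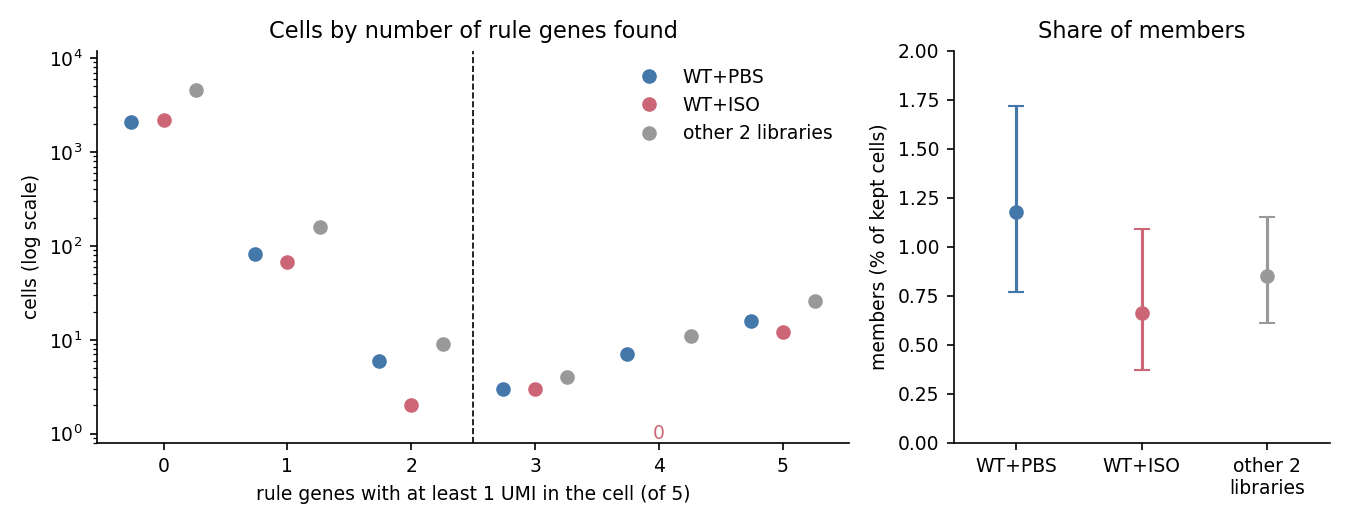
Left, number of kept cells (log scale) by how many of the 5 rule genes had at least 1 UMI, for WT+PBS, WT+ISO and the other 2 libraries summed; the dashed line marks the rule and a printed 0 a class with no cell. Right, members as a percentage of kept cells with 95% exact intervals, from 0.663% in WT+ISO to 1.18% in WT+PBS, with intervals that overlap.

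The rule genes themselves chose the cells, so their values describe the choice. Ccr7 (chr11:99144199-99155077, GRCm38.p6), the homing receptor, had 1127 UMIs in 81 of 82 members, which was 1028 per 1000000 of the members' UMIs (CPM). The other cells had 0.308 CPM, with Ccr7 found in 28 of 9221 of them, a background of 0.304% of cells. Members in WT+PBS held from 1 to 41 Ccr7 UMIs (median 9.5) and together 858 CPM (767 to 958, Poisson interval), and those in WT+ISO from 1 to 22 (median 16) and 748 CPM (645 to 862). In the other 2 libraries, members held 0 to 59 Ccr7 UMIs (median 10). Every WT member thus carried the receptor, and the cells of the libraries overlapped across most of their range.

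Ccl22 (chr8:94745684-94751388), a chemokine that attracts CCR4-bearing T cells, was found in 81 of 82 members. Members held 0 to 100 Ccl22 UMIs in WT+PBS (median 13.5, 1361 CPM), 2 to 61 in WT+ISO (median 9, 1047 CPM) and 1 to 90 in the other 2 libraries (median 12). Il4i1 (chr7:44836288-44840809), a secreted amino acid oxidase, was found in 76 members and held 0 to 71 UMIs per member in WT+PBS (median 5.5), 0 to 44 in WT+ISO (median 16) and 0 to 31 in the other 2 libraries (median 6). It was also the rule gene met most often outside the members, in 195 other cells (2.11%). Fscn1 (chr5:142960355-142973189), which encodes the actin-bundling protein fascin of dendrites, was found in 66 members with medians of 4.5, 6 and 5 UMIs in the 3 units. Cacnb3 (chr15:98628436-98644536), a calcium channel beta subunit, was found in 68 members with medians of 2, 2 and 3 UMIs. For each of the 5 genes the cells of WT+PBS, WT+ISO and the other 2 libraries covered overlapping ranges.

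**Figure D2:**
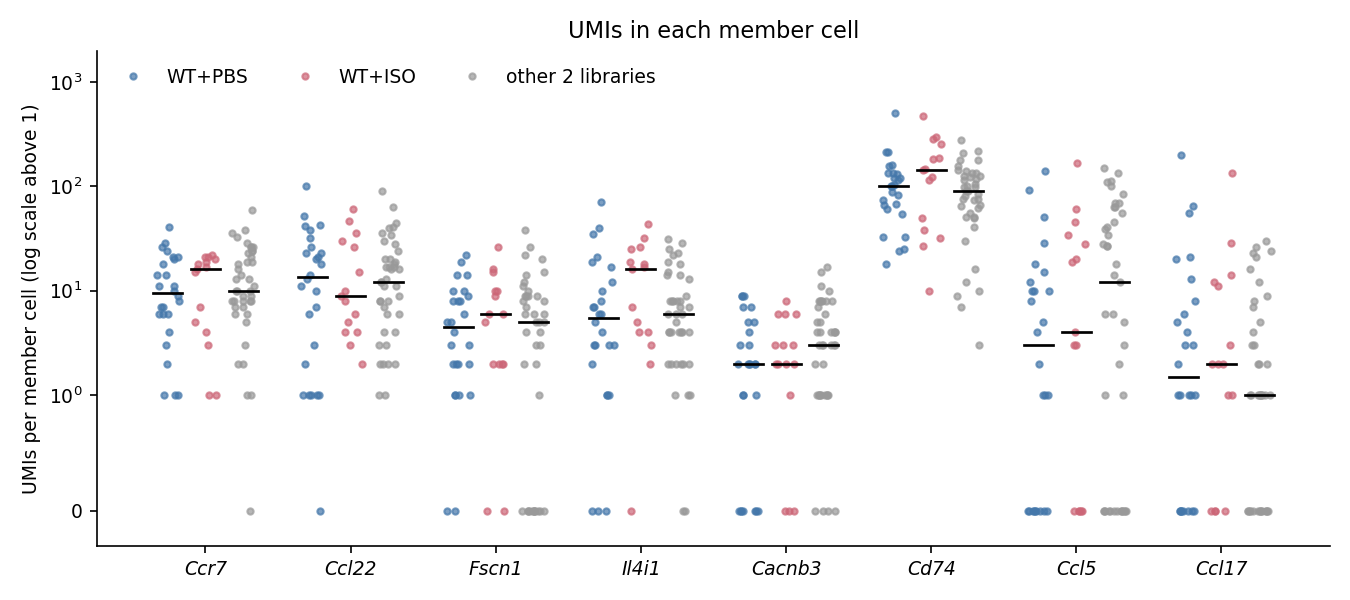
UMIs of the 5 rule genes and of Cd74, Ccl5 and Ccl17 in each of the 82 member cells (log scale above 1), with WT+PBS, WT+ISO and the other 2 libraries side by side and a black line at each median. The clouds overlap for every gene, and Ccl5 and Ccl17 range from 0 to over 100 UMIs.

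Cells just inside and just outside the rule are given for genes that the rule did not use. In the 10 cells with 3 rule genes, Cd83 was found in 5 and Cd74 in all 10, whereas in the 17 cells with 2 rule genes Cd83 was found in 1 and Cd74 in 15. Cd74 stood at 9380 CPM inside and 5194 CPM outside. The neutrophil transcript S100a8 stood at 6424 CPM inside and 25078 CPM outside.

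The whole transcriptome of the members was next set beside that of the other cells. For each gene the UMIs of members and of other cells were summed within a library, and a gene was counted as higher or lower when its CPM differed at least 4-fold the same way in each of the 4 libraries. Of 5757 genes with enough UMIs, 336 were higher in members (5.84%) and 97 were lower (1.68%), and the median log2 ratio of all 5757 was 0.085. Enough meant 30 UMIs in members, or 30 expected there from the other cells, and 1048 of the 5757 genes, among them 266 of the 336 higher ones, passed through the members alone. Such a gene is above the other cells by construction, so counts and medians of the lists below can lean upward and describe the counted genes only. Each list count below is to be read beside the 5.84% higher and 1.68% lower of all counted genes. For genes that passed through the members alone, it is to be read beside 266 of 1048 higher. Since the members were selected on transcripts of the same cells, these ratios carry no test, and the intervals given with them cover counting error only.

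Among called genes found in at least 20% of members, the largest ratios outside the rule genes belonged to genes of very different roles. Serpinb6b, an intracellular serine protease inhibitor, had 183 UMIs in 46 members and 6 UMIs in all other cells, a log2 ratio of 11.45 (10.30 to 12.92). Cd200, a surface ligand that restrains myeloid cells through CD200R, had 52 UMIs in 31 members and 2 UMIs elsewhere, a log2 ratio of 11.22 (9.29 to 14.30). Gm16685, a predicted gene, had 80 and 2 UMIs, a log2 ratio of 11.84 (9.94 to 14.91). Outside the members these 3 genes thus had 2 to 6 UMIs each. Without WT+PBS the ratio of Cd200 was 11.90.

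The transporter genes Slc22a23 and Slco5a1 had log2 ratios of 10.46 (9.71 to 11.33) and 10.29 (8.64 to 12.63). The ratio of Slco5a1 rested on 3 UMIs outside the members and was 8.57 when each cell weighed the same. Adcy6, an adenylyl cyclase that makes cAMP, reached 10.07 (8.96 to 11.43), and Ramp3, an accessory subunit that alters the ligand choice of calcitonin-family receptors, reached 9.16 (8.62 to 9.75) and was found in 61 members. Ptk6, a non-receptor tyrosine kinase, stood at 9.48 (8.14 to 11.18) and Scin, which encodes the actin-severing protein scinderin, at 8.57 (7.95 to 9.25). H2-Eb2, an MHC class II gene closely related to H2-Eb1 and therefore uncertain in its counts, stood at 8.62 (7.61 to 9.78), and Tmem150c, Adam11 and Zmynd15 stood between 8.56 and 9.72. Leaving out WT+PBS gave 9.35 for Scin and 8.80 for Ptk6. Leaving out 1 of the other 2 libraries gave up to 11.41 for Ptk6, 11.32 for Adam11 and 10.37 for Tmem150c.

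Among these genes, 2 are best known from T cells. Icos, a T cell costimulatory receptor, had 53 UMIs in 25 members and 3 UMIs in the other cells, a log2 ratio of 10.66 (9.04 to 12.99). Without WT+ISO this ratio was 9.73, and without 1 of the other 2 libraries it was 11.97. Icos had 10 UMIs in 8 of 26 WT+PBS members and 23 UMIs in 9 of 15 WT+ISO members, which was 26.7 and 90.5 CPM over all members of each library. Tcf7, a transcription factor, had 42 UMIs in 22 members, a log2 ratio of 8.91 (7.80 to 10.21), which was 9.74 without 1 of the other 2 libraries, 10.78 with each cell weighing the same and 10.38 without cells over 4 times the median depth. The T cell receptor subunit Cd3e was found in 2 members, both of which also had Icos, so 23 of the 25 Icos-positive members had no Cd3e UMI. Of the 10 lymphocyte markers, Cd3d, Cd79a, Gzma, Ms4a1 and Ncr1 were at 0 in members, and the 10 together summed to 4.56 CPM in members and 6.79 CPM in the other cells.

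**Figure D3:**
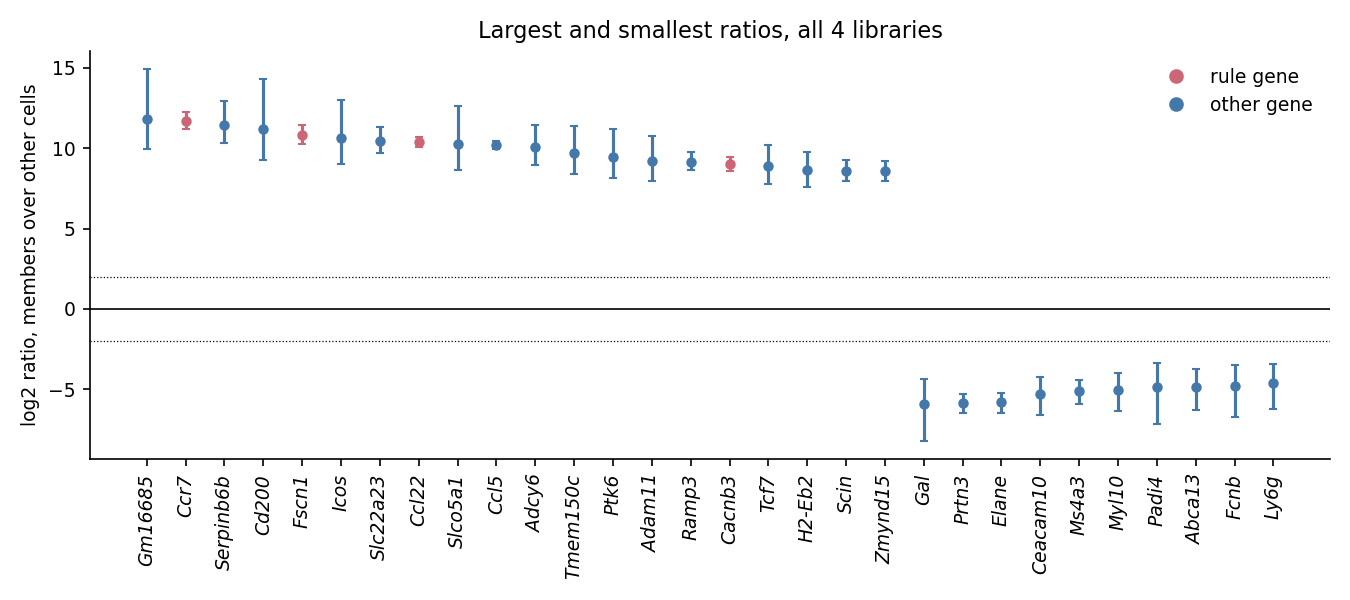
Log2 ratio of members over other cells, all 4 libraries summed, for the 20 genes with the largest ratio and the 10 with the smallest among called genes found in at least 20% of members or of other cells, with 95% exact intervals for counting error; dotted lines mark 4-fold. The higher genes drawn run from 8.56 to 11.84 and the lower from -5.93 to -4.63.

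The label was set beside genes that the rule had not used, on lists drawn up with earlier results of these cells known, so that they are no independent check. Of a list of 25 genes of the mature and migratory DC programme, 21 could be counted, 17 were higher and none was lower, with a median log2 ratio of 4.36. Of these 17, 14 passed the minimum of UMIs through the members alone, while Apol7c, Eno2, Bcl2l14 and Insm1 had too few UMIs to be counted. The list summed to 6883 CPM in WT+PBS members and 5576 CPM in WT+ISO members, against 905 and 821 CPM in the other cells of the same libraries. Samsn1, an adaptor protein, was its most abundant gene, with 974 CPM in members and 146 CPM in other cells (log2 ratio 2.74). Tmem123 stood at 776 and 34.9 CPM (4.47), and Gyg, which encodes the glycogen primer glycogenin, at 565 and 169 CPM (1.74), without passing 4-fold in each library. Socs2, a feedback inhibitor of cytokine receptors, stood at 377 and 20.5 CPM (4.20), with a range over libraries of 4.11 to 4.30, and Mreg at 264 and 18.5 CPM (3.83).

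DC identity genes were found in part of the members. Of 13 counted, 5 were higher and none lower, with a median log2 ratio of 2.57, and all 5 passed the minimum of UMIs through the members alone. The whole list summed to 2656 CPM in members and 1149 CPM in other cells. In the MHC class II high cells and C1q cells described below it summed to 2654 and 2480 CPM, so the sum was not particular to members. Zbtb46, a transcription factor of the conventional DC lineage, was found in 49 of 82 members and 2.25% of other cells (log2 ratio 5.48). Flt3, the receptor for the DC growth factor FLT3 ligand, was found in 21 members and 0.174% of other cells (7.26), and both genes were found together in 14 members. Dpp4 was found in 48 members (7.23), Irf8 in 76 (5.12) and Batf3, a transcription factor needed for cross-presenting DCs, in 65 (4.34).

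Markers that divide conventional DCs into subsets were mostly missing or split. Xcr1, Clec9a and Cadm1, which mark type 1 cells, and Cd209a had no UMI in any of the 82 members, which allows a share of up to 3.66% of members with a UMI of each, taken as 3 cells of 82. Itgae was found in 4 members. The type 2-associated lectin genes Mgl2 and Clec10a were found in 35 and 21 members, Irf4 in 36 and Sirpa in 51, so that none of these genes was found in all members. In summed UMIs, Id2 was the most abundant gene of the list, with 660 CPM in members and 277 CPM in other cells (log2 ratio 1.25). Of the 6 plasmacytoid DC markers, Ccr9, Klk1, Ly6d and Siglech were at 0 and 13 of the 14 UMIs came from Pacsin1. These 6 markers summed to 12.8 CPM in members and 2.58 CPM in other cells. Of 9 eosinophil, basophil and mast cell markers, 7 were at 0 in members, and the list summed to 2.74 CPM in members and 39.2 CPM in other cells.

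Part of the antigen presentation genes for CD4 T cells were higher in members. In the MHC class II list, 6 of 13 counted genes were higher and none was lower, with a median log2 ratio of 2.38, and 2 of the 6 passed the minimum of UMIs through the members alone. Cd74, the invariant chain that escorts class II molecules, had UMIs in all 82 members. Its UMIs per member ran from 18 to 506 in WT+PBS (median 101.5, 7883 CPM), from 10 to 470 in WT+ISO (median 144, 9310 CPM) and from 3 to 280 in the other 2 libraries (median 90). Other cells of WT+PBS and WT+ISO had 610 and 159 CPM. The alpha and beta chain genes H2-Aa, H2-Eb1 and H2-Ab1 had log2 ratios of 5.67, 5.83 and 4.15, and Ciita, the master regulator of class II transcription, one of 5.11. Of the peptide-exchange genes, H2-DMb2 was higher in each library, at 3.03 (2.80 to 3.25). H2-DMa and H2-DMb1 were nearer to the other cells, at 0.80 and 1.12.

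None of 12 counted MHC class I genes passed 4-fold in each library, and the median log2 ratio was 1.44. B2m, H2-K1, Psmb8 and H2-D1 had log2 ratios of 1.64, 1.60, 1.73 and 0.95, and their intervals lay above 0.

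Of 11 counted costimulatory and checkpoint ligands, 9 were higher and none lower in each library, with a median log2 ratio of 3.83. Of these 9, 6 passed the minimum of UMIs through the members alone. In summed UMIs 9 of the 11 lay above 0, and the lowest log2 ratio was -1.94. Cd83, a DC maturation marker that stabilises MHC class II at the surface, was found in 69 members and 1.26% of other cells (log2 ratio 7.86, 7.57 to 8.16). Its level was 294 CPM (242 to 355) in WT+PBS members and 212 CPM (160 to 277) in WT+ISO members. Tnfrsf9, which encodes 4-1BB, was found in 75 members (5.78), and its level was 987 CPM in WT+PBS and 807 CPM in WT+ISO members. The CD28 ligand Cd86 stood at 819 CPM in members and 60.1 CPM in other cells (3.77), and Cd40, the receptor for T cell help, at 42.0 and 0.268 CPM (7.29). Ligands of PD-1 were also higher, with Cd274 (PD-L1) at 399 and 32.7 CPM (3.61) and Pdcd1lg2 (PD-L2) at 291 and 20.4 CPM (3.83).

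NF-kB transcription factors are held inactive in the cytoplasm and drive DC maturation when released. All 15 genes of the NF-kB list were counted and 7 were higher in each library (median 1.75), but 8 of the 15, among them 5 of the 7, passed the minimum of UMIs through the members alone. Relb and Nfkb2, the partners of the non-canonical branch, had log2 ratios of 3.86 (3.69 to 4.03) and 3.05 (2.80 to 3.29), and Map3k14, the kinase that activates that branch, one of 4.72. Relb stood at 326 CPM in WT+PBS members and 323 CPM in WT+ISO members, against 21.0 and 17.0 CPM in the other cells. Rel (957 against 47.2 CPM), Nfkb1 (981 against 117 CPM) and the adaptor Traf1 (326 against 9.94 CPM) were higher as well. Rela, the partner most cells hold ready, had a log2 ratio of 0.33 with an interval of -0.15 to 0.77, and the inhibitor Nfkbia one of 1.61.

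Promoters of the higher genes were searched for a form of the NF-kB binding motif, to set the members' transcripts beside the DNA in front of them. The letters searched were GGG, any 2 bases and TTTCC, and on the other strand GGAAA, any 2 bases and CCC, in the 250 bases before each start of a gene in RefSeq (GRCm38.p6). Of the 336 higher genes, 266 matched the table and 9 (3.38%) held the motif, beside 447 of all 27025 genes (1.65%) and 1 of 79 matched lower genes (1.27%). The 9 were Dusp5, Gbp5, Gm43305, Nfkb2, Parp11, Rel, Tmem176a, Tmem176b and Tnfrsf9, of which Tmem176a and Tmem176b share 1 stretch read from both strands. A match is a run of letters and was not shown here to be bound. The stretches of 3 genes described above are shown, chosen after the matches were seen, each read along the gene's own strand with the motif in capitals. They lie at chr11:23771041-23771070 on the minus strand, 91 bases before the start of Rel, at chr19:46305695-46305724 on the plus strand, 225 bases before a start of Nfkb2 and downstream of another (which has its own match, not shown, 11 bases before it), and at chr4:150927946-150927975 on the plus strand, 43 bases before the start of Tnfrsf9, counted to the motif's first base.
Rel: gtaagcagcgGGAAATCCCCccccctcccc
Nfkb2: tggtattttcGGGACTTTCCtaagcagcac
Tnfrsf9: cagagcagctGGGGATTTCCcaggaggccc

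Of the rule genes, Ccl22, Fscn1, Il4i1 and Cacnb3 matched the table with 5 windows, and none of these held the letters, which says only that they are not in those windows. The Ccl22 window (chr8:94745434-94745683, plus strand), which ends at the base before the gene's start, is shown whole as the promoter of a gene that chose the cells, in lower case throughout since it holds no match.
Ccl22: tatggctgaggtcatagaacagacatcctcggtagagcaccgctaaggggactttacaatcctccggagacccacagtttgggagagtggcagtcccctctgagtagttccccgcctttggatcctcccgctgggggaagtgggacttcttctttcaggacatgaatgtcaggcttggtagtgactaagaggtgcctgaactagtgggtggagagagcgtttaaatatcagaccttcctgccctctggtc

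**Figure D4:**
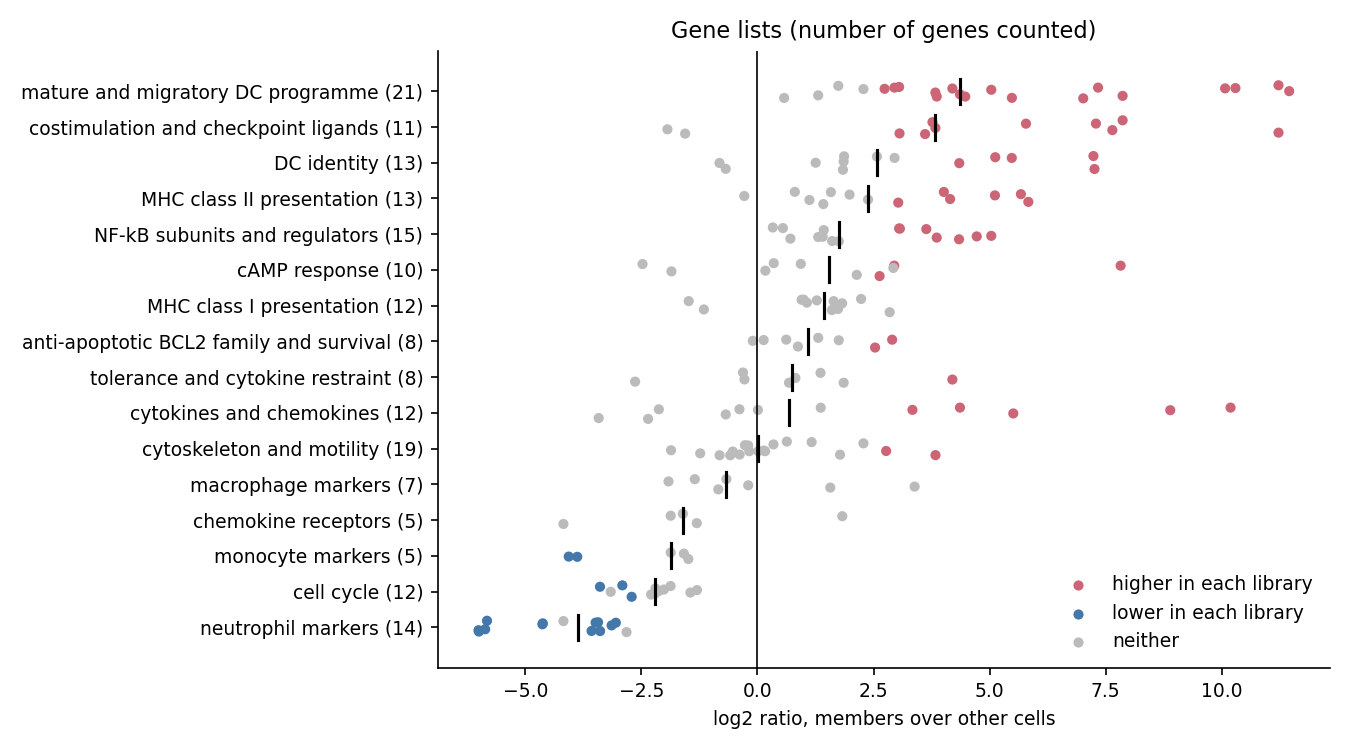
Log2 ratio of members over other cells for each counted gene of the lists, with the number counted in brackets and a black line at each list's median; red and blue points were at least 4-fold higher or lower in each library. Medians run from -3.88 for neutrophil markers to 4.36 for the mature and migratory DC programme.

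Secreted factors were few and unevenly shared among the members. Of 12 cytokine and chemokine genes counted, Ccl17, Ccl5, Cxcl16, Il12b and Il15 were higher and none was lower in each library. The median log2 ratio was 0.69, and 4 of the 5 passed the minimum of UMIs through the members alone. In summed UMIs 7 of the 12 lay above 0, and the lowest log2 ratio was -3.42. Cxcl9, Il10, Il12a and Il23a had no UMI in members. Ccl5, a chemokine that attracts T cells, had a log2 ratio of 10.19 (9.96 to 10.42) but was found in 55 of 82 members. The libraries differed by more than this interval, from 8.85 to 13.44, and without 1 of the other 2 libraries the ratio was 11.87. Its UMIs per member ran from 0 to 142 in WT+PBS (median 3), 0 to 169 in WT+ISO (median 4) and 0 to 150 in the other 2 libraries (median 12), and 10 cells held 54.9% of its UMIs. Ccl17, which shares the receptor CCR4 with Ccl22, was found in 56 members. It ran from 0 to 201 UMIs in WT+PBS (median 1.5), 0 to 136 in WT+ISO (median 2) and 0 to 30 in the other 2 libraries (median 1), and 10 cells held 73.4% of its UMIs. Both chemokines were found in 35 members, Ccl5 alone in 20, Ccl17 alone in 21 and neither in 6. Ccl22 and Ccr7 were spread more evenly, with 38.9% and 30.4% of UMIs in their 10 highest cells. Il12b, a subunit of IL-12 and IL-23, was higher on 31 UMIs in 9 members.

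Chemokine receptors other than Ccr7 stood apart from it. None of 5 counted passed 4-fold in each library, their median log2 ratio was -1.61, and Ccr9 and Cxcr3 had no UMI in members. Gpr183, an oxysterol receptor that positions DCs, stood at 64.8 CPM in members and 18.3 CPM in other cells (1.83), and Ccr2, the monocyte receptor for CCL2, at 37.4 and 137 CPM (-1.87). Among 19 cytoskeleton and motility genes, Marcks (3.83) and Myo1g (2.77) were higher in each library (10.5%, beside 5.84% of all counted genes). The median of this list was 0.016, with Actb at 8706 CPM in members and 5618 CPM in other cells.

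Among genes that answer cAMP, 3 of 10 counted (30%) were higher, beside 5.84% of all counted genes, and none was lower in each library. Of the 3, 2 had passed the minimum of UMIs through the members alone. The median log2 ratio was 1.54, and in summed UMIs 8 of the 10 lay above 0, with the lowest at -2.48. Nr4a3, an orphan nuclear receptor, had a ratio of 7.82 (7.55 to 8.10), with 361 CPM in WT+PBS and 366 CPM in WT+ISO members. Crem, a cAMP-responsive transcription factor, had one of 2.94, and the phosphodiesterase Pde4b one of 2.63. Pde4d was the list's most abundant gene, with 1075 CPM in WT+PBS and 1421 CPM in WT+ISO members and a ratio of 2.14. In the anti-apoptotic list 2 of 8 counted genes (25%), Bcl2a1b (2.53) and Bcl2a1d (2.90), were higher, and these near-identical paralogs may share reads. Mcl1 had a ratio of 0.62. In the list of tolerance and cytokine restraint, Socs2, which the mature programme list also holds, was the 1 gene of 8 (12.5%) that was higher. The median of this list was 0.75, and Ido2 and Itgb8 had no UMI in members.

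Genes of other cell types in the culture were lower in members or did not pass 4-fold in each library, although Gpnmb was higher in summed UMIs. Of 14 neutrophil markers, 12 were lower in each library, with a median log2 ratio of -3.88. The primary granule proteases Elane and Prtn3 had ratios of -5.82 and -5.86, on 25 and 26 UMIs in members, and of -4.78 and -4.77 when each cell weighed the same. Ceacam10 stood at -5.28, Ms4a3 at -5.12, Ly6g, the granulocyte surface marker, at -4.63 and Gal, which encodes the neuropeptide galanin, at -5.93, on 3 UMIs in 3 members. Without WT+PBS the ratio of Ly6g was -6.50, that of Ceacam10 -6.58 and that of Gal -6.97. Monocyte markers had 2 of 5 counted genes lower, Ly6c2 (-4.07) and F13a1 (-3.88), and macrophage markers none of 7 in either direction (median -0.67). At least 1 UMI of C1qa, C1qb or C1qc was found in 14 of 82 members and 331 of 9221 other cells. Gpnmb was the most abundant macrophage marker of the members, at 88.2 CPM in WT+PBS and 484 CPM in WT+ISO members, found in 26 of 82. Other cells of these libraries had 27.4 and 15.9 CPM of Gpnmb. Its log2 ratio over all libraries was 3.38 (3.15 to 3.61), with a range over libraries of 0.22 to 4.93. A single cell held 42.0% of its 181 member UMIs, and the 10 members with 3 rule genes held 94 of them (596 CPM), against 70.4 and 98.2 CPM in members with 4 and 5 rule genes. Of 12 cell cycle genes counted, Cdk1, Hist1h1b and Rrm2 were lower in each library and 9 did not pass, with a median of -2.20.

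Neutrophil transcripts were not evenly absent from members. The 14 markers summed to 17883 CPM in WT+PBS and 19955 CPM in WT+ISO members, against 127460 and 151190 CPM in other cells, and S100a9 gave 49.5% of the members' sum. Per cell the list ran from 7.86 to 2664 UMIs per 10000, with a median of 17.4 in members and 1429 in other cells. In 15 of 82 members it lay above 44.0, the 10th percentile of the other cells. S100a8 and S100a9, which were found in every member, had a median of 16.3 per 10000 in members, 18.4 in C1q cells and 16.0 in MHC class II high cells, both described next. Cells with more than 4 times their library's median UMIs were 2 of 82 members and 147 of 9221 others. Cells had been labelled with sample tags before capture. For each library the tag with the most counts over all its cells was taken. That tag held under 80% of a cell's tag counts in 10 of 82 members (12.2%) and 836 of the others (9.07%). Without the 15 members, 158 genes were lower in place of 97. The part of doublets or free RNA in these values was not tested.

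The cells were sorted on CD11b protein, the product of Itgam, and a cell without an Itgam UMI can still carry that protein. Itgam RNA was found in 22 of 82 members and 87.2% of other cells. It stood at 67.5 CPM in members and 336 CPM in other cells, a log2 ratio of -2.32 (-2.67 to -1.99), and was lower in each library. Itgam was added to the genes named after its values had been seen.

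To see what set members apart from the cells most like them, they were compared with 88 C1q cells, which had UMIs of C1qa, C1qb and C1qc, and with 79 MHC class II high cells, which had no C1q UMI and at least 20 UMIs per 10000 of H2-Aa, H2-Ab1 and H2-Eb1 together. WT+PBS held 11 and 17 of these, and WT+ISO held 0 and 10; 0 of 2264 cells allows a share of C1q cells of up to 0.133%. Against MHC class II high cells, Cd74 was at nearly the same level (log2 ratio -0.05, -0.09 to -0.01). H2-Aa (0.17) and H2-Eb1 (0.24) were slightly higher in members, while H2-Ab1 (-1.03, -1.14 to -0.93) and H2-DMb2 (-0.73) were lower. Among genes outside the rule, Cd83 (4.64, 3.81 to 5.60), Relb (3.15, 2.63 to 3.71), Traf1 (3.06, 2.57 to 3.59) and Tbc1d4 (2.89, 2.49 to 3.30) were all higher in members. Ccl17 was near in summed UMIs (0.21, 0.06 to 0.36), but was found in 68.3% of members and 26.6% of MHC class II high cells. Mgl2 (-1.07) and Clec10a (-1.11), which encode lectins of type 2 DCs and macrophages, the mannose receptor gene Mrc1 (-3.53) and Itgam (-2.48) were lower in members.

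Against C1q cells, members had more Cd74 (log2 ratio 1.11, 1.05 to 1.16) and H2-Aa (2.25, 2.12 to 2.37), more Cd83 (7.46, 5.60 to 10.51) and Relb (3.15, 2.67 to 3.67), and less Mrc1 (-4.77), Mgl2 (-1.25) and Itgam (-2.95). Members were thus close to the MHC class II high cells in Cd74 and above both kinds in the maturation genes named, Cd83 and Relb. Both kinds were drawn from cells that failed the rule, and the MHC class II high cells were also chosen on class II genes. These choices shape the contrasts, which are a description and no test.

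**Figure D5:**
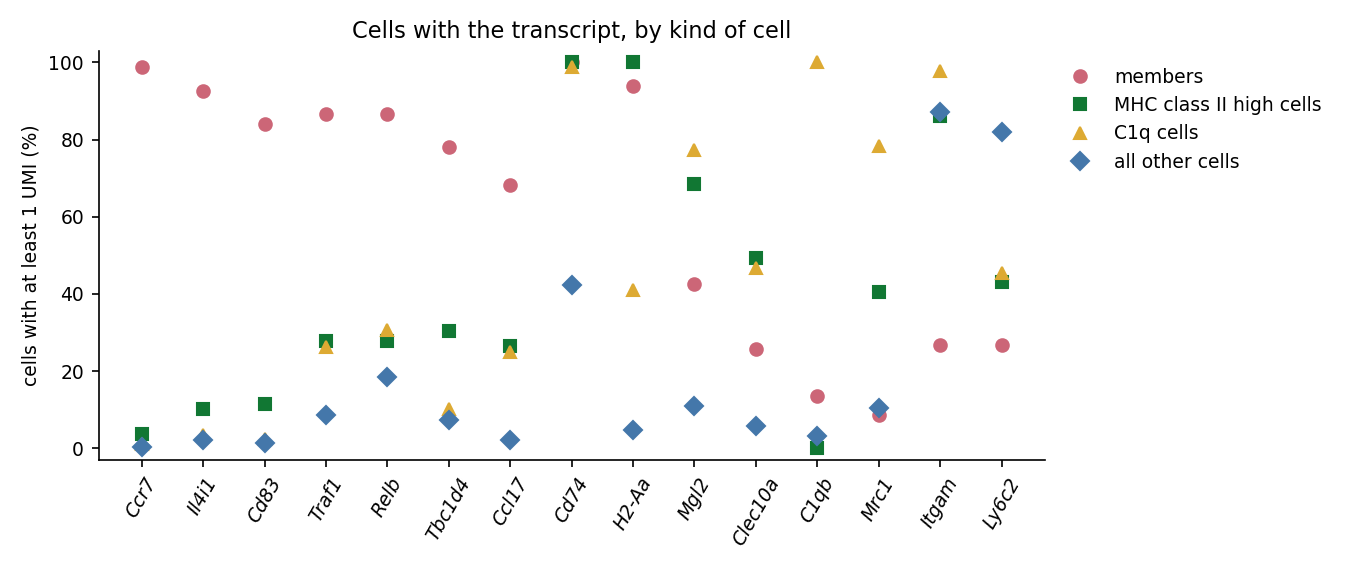
Percentage of cells with at least 1 UMI of 15 genes in the 82 members, 79 MHC class II high cells, 88 C1q cells and all 9221 other cells, which include both kinds; where points coincide the later kind in the legend covers the earlier. Cd83 and Traf1 were found in over 80% of members, and Itgam in 26.8% of members against 87.2% of other cells.

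The design asks whether ISO changed these cells, and the number of members limits the answer. Members were 1.18% of WT+PBS cells (0.770 to 1.72) and 0.663% of WT+ISO cells (0.371 to 1.09), a ratio of 0.563 with an interval of 0.277 to 1.10 that includes 1. With each cell thinned to 2000 UMIs, which left out 181 WT+PBS and 127 WT+ISO cells, the shares were 0.641% and 0.374%. Among members, C1q cells and MHC class II high cells together, the WT+PBS library had 26 members of 54 cells (48.1%, 34.3 to 62.2). The same count for the WT+ISO library was 15 of 25 cells (interval 38.7 to 78.9%), so this share ran in the opposite direction, with intervals that overlap. When 2 rule genes sufficed, the ratio was 0.519 (0.270 to 0.962). With 1 library in each group, a difference between treatments and one between libraries cannot be told apart. WT+ISO held 15 members, under the minimum of 20 set for comparing genes within members, so no list of ISO-changed genes was made, and the levels given for the groups above are shown side by side without comparison.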

How the data were processed

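The authors generated MDSCs from mouse bone marrow, sorted live CD11b+ cells and deposited raw UMI counts per gene and cell. The deposited headers name Cell Ranger 7.0.0, the submitters' processing notes Cell Ranger 6.0.0, Seurat and build mm10; the roles of these tools are not given in the sources used here. Cells under 200 genes or over 10% mitochondrial UMIs were dropped, which left 9303 of 9525, and 12 multiplexing tags were left out of expression. Members, gene lists and alternatives were chosen with earlier results of these data known. The rule for named genes took the 5 rule genes, the 20 largest and 10 smallest ratios among genes passing 4-fold and found in at least 20% of members or of other cells, and from each of 20 lists (271 genes) its counts and up to 4 genes with most UMIs; further list members were picked after their values were seen. Genes were counted with at least 30 observed or expected member UMIs, and 0 counts were set to a floor of 3. The 4-fold rule used every library with at least 10 members. CPM is per 1000000 UMIs of the cells summed. Intervals are 95%: Clopper-Pearson for shares above 0 (a share of 0 is limited by 3 counts), Poisson for CPM, conditional binomial for ratios; they cover counting error only and treat UMIs as independent, although few cells carry them. No doublet caller was run. Alternatives changed the cell filter, the rule, the fold, the UMI minimum, depth, weights and comparison cells. Values of the other 2 libraries are not reported separately here, and some genes of the lists are not reported by name. Gene positions and promoters came from RefSeq tables of GRCm38.p6, the assembly behind mm10. Python 3.11.15, numpy 2.4.6, scipy 1.17.1, pandas 2.3.3 and matplotlib 3.10.9 were used, and the scripts were tested on simulated data.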

Additional observations from a re-analysis of the deposited data

How the results depend on the processing

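Of 76 shares, ratios and counts recomputed under other settings, 69 stayed within their interval or within 1.5 times the count given, and 7 moved. Thinning cells to 2000 UMIs lowered the member share to 0.641% in WT+PBS and 0.559% over all libraries. A 2-fold limit gave 747 higher and 493 lower genes, a minimum of 100 UMIs gave 204 higher genes, and 2 alternatives chosen after seeing the data moved the lower genes, to 158 without members rich in neutrophil transcripts and to 221 against C1q and MHC class II high cells, where libraries were summed and 4-fold was not asked of each library. Without 1 library in turn, 315 to 341 genes were higher and 105 to 136 lower. Of 422 recomputed gene ratios, 377 stayed within their interval and 40 moved without a change of sign, 19 of them against those like cells and 11 without 1 library. A further 12 had no UMI on one side and gave no value. Leaving out 1 library moved 13 of 31 genes by over 1.5 times, with log2 differences from -1.86 (Ly6g) to 2.10 (Adam11), and no sign changed. The remaining 5 changed sign, all against those like cells and on few UMIs. Prtn3 had a log2 ratio of 0.0013 (26 UMIs in members, 49 in like cells) and Elane one of 0.10 (25 and 44). Ceacam10 had one of 0.14 (7 and 12), Padi4 one of 0.50 (3 and 4) and Abca13 one of 1.92 (6 and 3). The cause was not tested. The share ratio of WT+ISO over WT+PBS ran from 0.488 to 0.633. The comparison of genes within members between WT+ISO and WT+PBS was not run, and so neither were its alternatives, since WT+ISO held 15 members. Members and other cells were compared within each library. No paired comparison of WT+ISO with WT+PBS was possible, because no group holds more than 1 library.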
